A study of Mus musculus with 4 samples.

Results

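The plasminogen and coagulation genes described here are 9 genes whose proteins make or restrain plasmin or take part in blood clotting. They were chosen by symbol from a list of activators, receptors, inhibitors and clotting factors, and all 9 were found among the 55401 genes of the count table. The list holds the plasminogen activators Plau (urokinase) and Plat (tissue-type activator), the urokinase receptor Plaur, the plasminogen-binding annexin Anxa2, and the activator inhibitor Serpinb2. It also holds tissue factor (F3), clotting factor X (F10), the A chain of factor XIII (F13a1) and thrombomodulin (Thbd). Each of the 9 is a protein-coding gene and passed the filter on low counts, but Plat did so with few counts.

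RNA-seq of poly(A) RNA compared bone marrow-derived macrophages of C57BL/6J mice, a culture model in which marrow precursors mature outside the body. All marrow cells received CRISPR-Cas9 lentivirus on day 1 (multiplicity of infection 30) and differentiated for 5 days. The virus targeted Adcy7, the gene of an adenylyl cyclase that makes cyclic AMP, in 2 libraries (Adcy7 knockout), and the Rosa locus, a commonly used neutral site, in the other 2 (Rosa control). The cultures are bulk populations, how many guides and cultures stand behind a group is not given in the sources used here, and p-values measure the spread between these libraries, which may be technical.

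Plasminogen is a circulating zymogen that urokinase and tissue-type activator cleave to plasmin, the protease that dissolves fibrin and helps cells move through matrix. Macrophages hold urokinase at their surface on its receptor and gather plasminogen on annexin A2 and other binding proteins, while serpins trap the activators. Clotting runs the other way: tissue factor with factor VII activates factor X, thrombin forms fibrin, and factor XIII cross-links it. Thrombomodulin turns thrombin toward the anticoagulant protein C.

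Library totals were 61782358 to 71914179 counts, and 15832 genes were tested. Adcy7 mRNA stood at 59.4 and 58.8 CPM (counts scaled to a common library total) in the knockout and 122 and 125 CPM in the control, so it was lowered but present. Macrophage markers were present in all 4 libraries, with Cd68 at 855 to 956 CPM. Of 14 macrophage markers tested, 12 were lower and 1 higher in the knockout, and their summed level was 23578 to 23825 CPM against 61538 to 63514 CPM in the control. C1qa, a macrophage complement gene, had 4 and 0 counts in the knockout. Neutrophil markers were also present, summing to 6090 to 7747 CPM in the knockout and 6456 to 7763 CPM in the control, and of 12 tested 6 were lower, 1 higher and 5 did not pass. In such bulk samples, fewer cells of a type and less RNA per cell cannot be told apart.

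Promoter sequence was at hand for 6 of the 9 genes. The window runs from 250 bases before to 50 bases after each annotated start (RefSeq, GRCm38.p6), and 4 of the genes carry the letters TGANTCA, which match the AP-1 site bound by Fos and Jun proteins. These 4 are shown because they hold Serpinb2, F3 and Plaur, which rose, and Anxa2, which fell, with the same kind of site near the start. The 250 bases before the start are printed 5′ to 3′ on the gene's strand, with the AP-1 letters in capitals. The Plaur stretch is chr7:24462233-24462482, that of Serpinb2 at its upstream start is chr1:107511173-107511422, that of Anxa2 is chr9:69453433-69453682 and that of F3 is chr3:121723287-121723536, all on the plus strand.
Plaur: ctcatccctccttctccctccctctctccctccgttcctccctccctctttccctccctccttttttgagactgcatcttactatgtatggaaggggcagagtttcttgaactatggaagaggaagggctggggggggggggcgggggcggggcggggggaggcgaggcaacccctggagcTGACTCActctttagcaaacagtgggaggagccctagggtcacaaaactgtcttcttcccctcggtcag
Serpinb2: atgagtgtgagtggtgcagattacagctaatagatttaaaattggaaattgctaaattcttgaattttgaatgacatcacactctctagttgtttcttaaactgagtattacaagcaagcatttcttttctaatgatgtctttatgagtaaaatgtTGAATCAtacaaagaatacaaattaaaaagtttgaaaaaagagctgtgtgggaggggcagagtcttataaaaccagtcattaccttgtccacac
Anxa2: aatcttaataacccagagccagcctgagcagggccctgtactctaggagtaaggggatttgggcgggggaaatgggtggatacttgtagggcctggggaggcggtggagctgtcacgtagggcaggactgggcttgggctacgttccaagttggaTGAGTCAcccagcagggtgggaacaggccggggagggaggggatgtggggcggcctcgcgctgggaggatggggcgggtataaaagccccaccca
F3: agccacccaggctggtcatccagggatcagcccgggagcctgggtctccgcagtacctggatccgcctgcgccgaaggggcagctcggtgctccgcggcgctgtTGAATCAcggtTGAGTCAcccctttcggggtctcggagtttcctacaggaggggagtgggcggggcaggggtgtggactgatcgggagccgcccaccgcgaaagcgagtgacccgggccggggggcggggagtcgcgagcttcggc
The site lay 69 to 63 bases before the start in Plaur, 94 to 88 in Serpinb2 and 95 to 89 in Anxa2. F3 held 2 sites, at 146 to 140 and 135 to 129 bases before the start.

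In the Adcy7 knockout, 5 of the 9 genes were higher (Plaur, Plat, Serpinb2, F3 and F10) and 4 were lower (Plau, Anxa2, F13a1 and Thbd). Of all tested genes 49.6% passed the quasi-likelihood test of edgeR after Benjamini-Hochberg adjustment, 25.0% higher and 24.6% lower, so many genes moved besides these. Knockout and control libraries did not overlap for any of the 9, where this held for 75.2% of all tested genes (37.4% higher and 37.8% lower). Plat met the low-count filter through the knockout alone, which favours a rise, so its call and lack of overlap count for little. The median log2 fold change of the 9 was 1.12, beside 0.01 for all tested genes. This median is the value of Plaur, the smallest of the 5 rises, so it shows no shared shift of the 9. The changes ran from a 52.5-fold rise of Serpinb2 to a fall of F13a1 to 17.4% of its control level. Within each arm of the system the genes moved apart: the urokinase receptor rose while urokinase fell, and factor X rose while factor XIII fell.

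**Figure D1:**
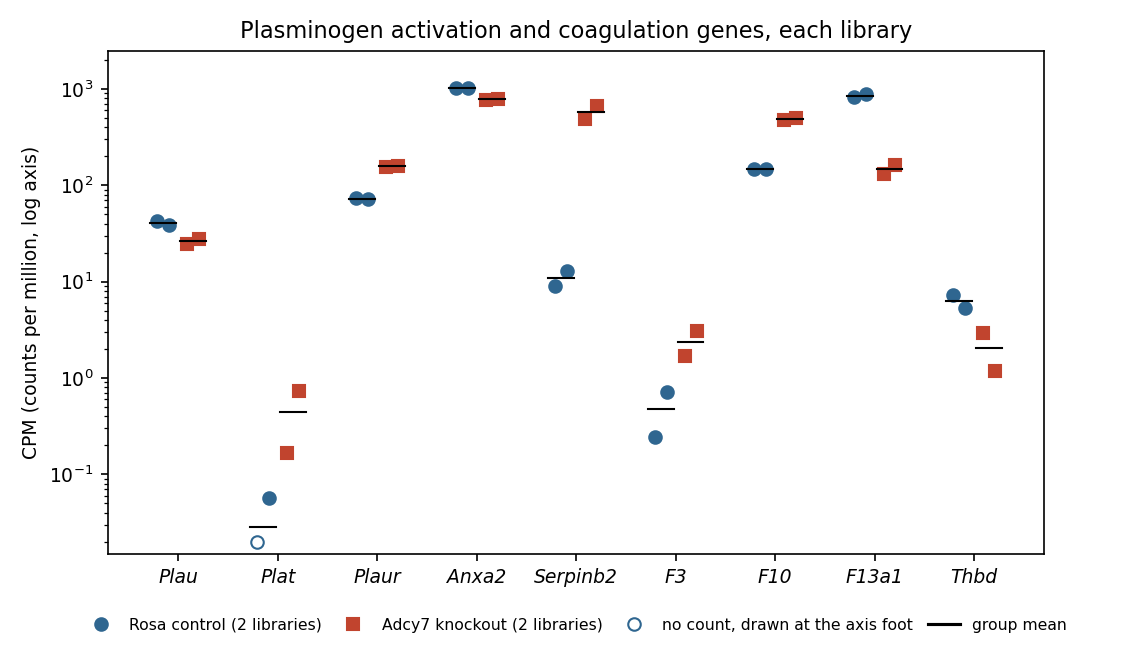
Level of each of the 9 genes in each library, in CPM on a log axis, with circles for the 2 Rosa control libraries, squares for the 2 Adcy7 knockout libraries and a line at each group mean. The groups do not overlap for any gene, with the widest gap for Serpinb2, and Plat lies at the foot of the axis with no count in 1 control library.

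The activators moved in opposite directions and stood at very different levels. Plau (ENSMUSG00000021822, chromosome 14), the gene of urokinase, was at 24.7 and 27.7 CPM in the knockout libraries and at 42.5 and 38.7 CPM in the control libraries. Both knockout libraries were lower than both controls, and the fall was modest. Plau fell to 65.2% of the control level, or by 0.62 on the log2 scale (standard error, SE, 0.11; adjusted p = 0.000808). Plat (ENSMUSG00000031538, chromosome 8), the gene of the activator best known from endothelium and neurons, had 12 and 45 counts in the knockout and 0 and 4 in the control. It passed (adjusted p = 0.0219), yet 4 control counts stand for about 1 sequenced fragment, and the pooled ratio of 14.5, with counts divided by 4, had a 95% exact binomial counting interval of 2.16 to 600.6. The call was lost without knockout replicate 2 (adjusted p = 0.264), without control replicate 1 (adjusted p = 0.1001) and without the low-count filter (adjusted p = 0.086). The log2 fold change of Plat was 7.85 without control replicate 2 and 4.53 without knockout replicate 1, so its size is not fixed by these libraries.

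Plaur (ENSMUSG00000046223, chromosome 7) codes for the lipid-anchored receptor that holds urokinase at the cell surface. It was at 157 and 158 CPM in the knockout and at 73.1 and 72.8 CPM in the control. The libraries of a group were nearly equal, and the groups stood far apart for their spread. Plaur rose 2.18-fold (log2 1.12, SE 0.09, adjusted p = 2.08e-06). Within a library, per kilobase of merged exons, there were 5.74 and 5.15 times as many Plaur as Plau counts in the knockout and 1.56 and 1.70 times as many in the control. This ratio of receptor to ligand mRNA was therefore higher in both knockout libraries.

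Anxa2 (ENSMUSG00000032231, chromosome 9) codes for annexin A2, which binds plasminogen and tissue-type activator at the membrane together with the small protein S100a10. Its level was 777 and 782 CPM in the knockout and 1015 and 1029 CPM in the control. The fall, to 77.1% of the control level, was the smallest change among the 9 genes (log2 -0.38, SE 0.09, adjusted p = 0.00451). It did not pass without control replicate 2 (log2 -0.35, adjusted p = 0.0807). S100a10, whose values were looked up for being the partner of Anxa2, was at 108 and 100.5 CPM in the knockout and 182 and 201 CPM in the control, and fell further (log2 -0.86, SE 0.10).

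Other genes for plasminogen binding and urokinase receptor function moved both ways. Of 16 listed genes of plasminogen, its receptors and their helpers, 13 were tested. Of these, 5 were higher, 6 were lower and 2 did not pass (median log2 fold change -0.01). Itgb3, the integrin chain that pairs with Itgav or Itga2b, rose 7.27-fold, from 8.17 ± 0.0998 to 58.7 ± 4.36 CPM (SD, n = 2 in each group). Eno1, a glycolytic enzyme that also serves as a plasminogen receptor, rose 2.31-fold. Lrpap1, the chaperone of the receptor Lrp1, which clears complexes of activator and inhibitor, rose 2.53-fold, while Lrp1 itself, named after its values were seen, fell from 599 ± 50.9 to 343 ± 36.5 CPM (SD, n = 2 in each group). S100a4, a calcium-binding protein reported to bind annexin A2, fell to 15.7% of control. Plasminogen itself (Plg) had 0 and 3 counts in the knockout and none in the control, so its mRNA was not detectable beyond that here. Itgb3 is also carried by platelets, and all 12 of the platelet and megakaryocyte markers tested were higher in the same libraries, beside 25.0% of all tested genes. Whether platelets had a part in the Itgb3 result was not tested.

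Serpinb2 (ENSMUSG00000062345, chromosome 1) codes for plasminogen activator inhibitor 2, a serpin that inhibits urokinase and in macrophages stays largely inside the cell. It was at 484 and 666 CPM in the knockout and at 9.09 and 12.9 CPM in the control. Even the lower knockout library was far above the higher control library. Serpinb2 rose 52.5-fold (log2 5.71, SE 0.20, adjusted p = 3.67e-09), and leaving out any 1 library gave log2 values from 5.46 to 6.01. By level per kilobase it stood at rank 226 of the 15815 tested genes with a known length in the knockout and at rank 6233 in the control. By fold change it was at rank 268 among the rises of 15832 genes.

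The secreted inhibitors Serpine2 and Serpini1 rose as well. Of 10 listed inhibitors of plasmin and its activators, 5 were tested, of which 3 rose and 2 fell, and 5 had no count in any library. Their median log2 fold change was 2.22, or 1.76 with Serpinf2, which had no control count, at its bound. Serpine2, protease nexin 1, which inhibits urokinase and thrombin, was at 41.5 and 41.8 CPM against 4.08 and 6.17 CPM, a rise of 8.17-fold. Serpini1, neuroserpin, an inhibitor of tissue-type activator, rose 4.67-fold. Serpinf2, the gene of the plasmin inhibitor antiplasmin and named after its values were seen, had 24 and 16 counts in the knockout and none in the control, at least 3.38-fold higher against a floor of 12 pooled counts. It passed the low-count filter through the knockout alone, and its call was lost without control replicate 1 (adjusted p = 0.0668), without control replicate 2 (adjusted p = 0.0673) and with no low-count filter (adjusted p = 0.0547), leaving 2 higher. The members that fell were Serpinb8, to 47.7% of control, and Serpinb6a, to 64.7%, intracellular serpins that are also on the list of clade B serpins.

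Serpinb2 lies in a row of serpin genes on mouse chromosome 1, and the tested members of its family moved both ways. Of 16 other clade B serpins, the family of mostly intracellular serpins, 8 were tested: 3 were higher, 3 lower and 2 did not pass (median -0.00). The count of higher genes was 2 without control replicate 1, which ended the call of Serpinb9 (adjusted p = 0.0965). Serpinb10, annotated as a polymorphic pseudogene, whose span overlaps that of Serpinb2 on the same strand, was at 1.33 and 1.75 CPM in the knockout and 15.8 and 14.5 CPM in the control, and fell to 10.2% of control (log2 -3.29, SE 0.20, adjusted p = 2.26e-07). Serpinb8, the next protein-coding gene that does not overlap it on one side, also fell. Reads from the stretch that Serpinb2 and Serpinb10 share may not be told apart, and yet the assigned counts moved in opposite directions. Serpinb9b, a gene with close copies whose reads can be split among them, had 522 and 393 counts in the knockout and 0 and 21 in the control. Its log2 fold change was 5.46, 4.49 without control replicate 1 and 11.84 without control replicate 2.

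Set side by side within a library, the mRNA of Serpinb2 and Serpine2 together exceeded that of both activators in the knockout and not in the control. Per kilobase, the sum of Serpinb2 and Serpine2 was 20.1 and 24.4 times that of Plau and Plat in the knockout and 0.243 and 0.382 times in the control. This ratio lay above 1 in both knockout libraries and below 1 in both control libraries. Serpine2 alone over Plau and Plat was 0.478 and 0.426 in the knockout and 0.0274 and 0.0455 in the control, so it was higher in the knockout but below 1 in all 4 libraries. Other inhibitors are not in these ratios. These ratios were formed after the values were seen, and with 2 libraries against 2 a two-sided exact permutation test cannot go below p = 0.333, so no test is given.

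**Figure D2:**
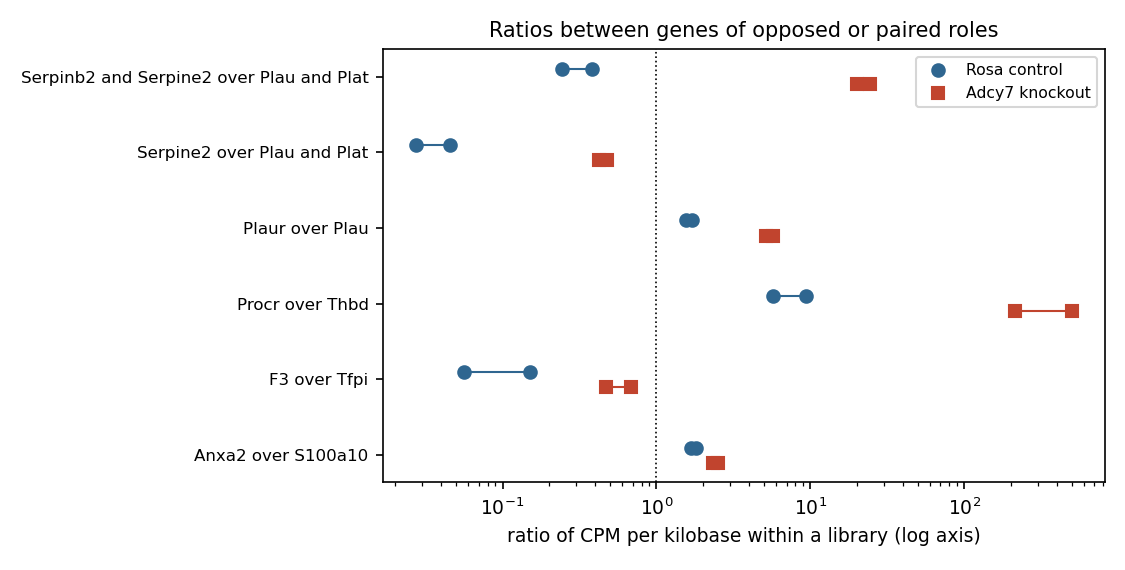
Ratios of CPM per kilobase of merged exons between genes within each library, on a log axis, with circles for Rosa control, squares for Adcy7 knockout and a dotted line at 1. Serpinb2 and Serpine2 over the activators, and Procr over Thbd, lie far to the right in both knockout libraries, and the libraries of the groups do not overlap in any of the 6 ratios. The ratios were formed after the values were seen, and the groups did not overlap for 75.2% of all tested genes either.

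Tissue factor, F3 (ENSMUSG00000028128, chromosome 3), is the membrane receptor that starts clotting and that activated monocytes and macrophages can express. It was low throughout, at 1.70 and 3.06 CPM in the knockout and 0.243 and 0.716 CPM in the control. The replicates of each group differed widely, but the groups did not overlap. F3 rose 4.84-fold (log2 2.28, SE 0.49, adjusted p = 0.00272), with a log2 value of 3.28 without control replicate 2. Tfpi, the gene of the inhibitor of tissue factor and factor VII and named after its values were seen, had a log2 fold change of -0.15 (SE 0.16, adjusted p = 0.492). The ratio of F3 to Tfpi per kilobase was 0.468 and 0.679 in the knockout and 0.0563 and 0.151 in the control.

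F10 (ENSMUSG00000031444, chromosome 8) codes for factor X, whose active form, in complex with factor V, makes thrombin. It is best known from liver, and macrophages also make it. The level was 475 and 503 CPM in the knockout and 148 and 147 CPM in the control, so it was an abundant mRNA in both groups. F10 rose 3.35-fold (log2 1.74, SE 0.09, adjusted p = 5.97e-08) and kept its call under all 14 other settings tried. F7, its neighbour on the chromosome and the partner of tissue factor, rose 1.37-fold, from 21.8 ± 2.49 to 29.4 ± 2.46 CPM (SD, n = 2 in each group). The F7 call was lost without control replicate 2 (adjusted p = 0.151) and without the low-count filter (adjusted p = 0.0568). The AP-1 letters were not found in the window of F10.

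F13a1 (ENSMUSG00000039109, chromosome 13) codes for the A chain of factor XIII, the transglutaminase that cross-links fibrin and is carried by platelets, monocytes and macrophages. It went from 832 and 881 CPM in the control to 132 and 163 CPM in the knockout. It was the second most abundant of the 9 mRNAs per kilobase in the control and the fifth in the knockout. F13a1 fell to 17.4% of the control level (log2 -2.53, SE 0.11, adjusted p = 2.31e-08). Classical monocyte markers fell in part beside it, 5 of 8 lower, 2 higher and 1 not passing, and Ccr2, a monocyte chemokine receptor, fell to 0.926% of its control level. The summed level of that list was nevertheless higher in the knockout, 5791 to 5969 CPM against 3670 to 3994 CPM, mostly through Hp. Platelet and megakaryocyte markers, of another cell type that carries F13a1, were higher (12 of 12, summed 325 to 367 CPM against 186 to 202 CPM). The part of either cell type in the F13a1 result was not tested. Tgm2, another transglutaminase, rose 2.50-fold, to 809 ± 66.4 from 327 ± 19.9 CPM (SD, n = 2 in each group).

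Thbd (ENSMUSG00000074743, chromosome 2) codes for thrombomodulin, the membrane receptor that makes thrombin an activator of protein C. It was at 2.91 and 1.18 CPM in the knockout and 7.22 and 5.37 CPM in the control. In proportion to their level, the knockout libraries differed more from each other than the controls did, though the SD in CPM was similar (1.22 against 1.31). Both knockout libraries were below both controls. Thbd fell to 33.8% of control (log2 -1.56, SE 0.33, adjusted p = 0.00224), and the log2 value was -2.41 without knockout replicate 1. Procr, the endothelial protein C receptor, which presents protein C to thrombomodulin, did the reverse. It was at 339 and 323 CPM in the knockout and 22.6 and 27.6 CPM in the control, a rise of 13.3-fold (log2 3.73, SE 0.12, adjusted p = 3.03e-09). Per kilobase, Procr mRNA was 214 and 501 times Thbd mRNA in the knockout and 5.73 and 9.43 times in the control.

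The list of anticoagulants also holds related genes such as Gas6 and Thbs1, and besides Procr its genes were mostly lower or did not pass. Of 13 listed, 9 were tested: 2 were higher, 4 lower and 3 did not pass (median -0.16). Pros1, protein S, the cofactor of activated protein C, fell from 9.30 ± 1.82 to 1.01 ± 0.151 CPM (SD, n = 2 in each group), or to 10.9% of control. Its homologue Gas6, a ligand of TAM receptors, fell from 25.1 ± 2.21 to 2.03 ± 0.977 CPM, with a log2 fold change of -3.57 and of -4.22 without knockout replicate 1. Anxa3, an annexin, fell to 46.7% of control. The other gene that rose besides Procr was Thbs1, thrombospondin 1, by 2.18-fold, named after its values were seen. Endothelial markers, which would accompany vessel cells that carry Thbd, Procr and Vwf, gave 4 higher and 3 not passing of 7 tested. Those higher were Vwf itself, Pecam1, Tie1 and Esam, and those not passing were Cdh5, Kdr and Eng. Tek, Cldn5 and Robo4 had no count in any library, and Cdh5 was at 0.289 to 0.779 CPM. The summed endothelial list was 130.5 to 146 CPM in the knockout and 72.4 to 79.7 CPM in the control. Most of this difference came from Vwf, which is on the list, at 68.5 and 57.6 CPM against 8.07 and 7.31 CPM. The part of endothelial cells in the Thbd, Procr and Vwf results was not tested.

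Among the clotting factors and fibrin genes, most of the liver-made factors were absent. Of 16 listed genes 6 were tested and 7 had no count in any library, among them prothrombin (F2) and the fibrinogen chains Fgb and Fgg. Of the 6 tested, 4 were higher, 1 lower and 1 did not pass (median 0.49). The fourth, F5, the cofactor of factor X and named after its values were seen, passed narrowly (log2 0.52, SE 0.19, adjusted p = 0.0449) and lost its call under 9 of the 14 other settings. Without control replicate 2, where F7 lost its call too, 2 were higher, as with no low-count filter. Vwf, von Willebrand factor, the platelet adhesion protein of endothelium and megakaryocytes, rose 8.30-fold, from 8.07 and 7.31 to 68.5 and 57.6 CPM. Fgl2, a membrane protein with prothrombinase activity, was the member that fell, from 41.8 ± 6.15 to 8.86 ± 3.76 CPM (SD, n = 2 in each group), or to 21.2% of control. In the same libraries Itga2b, the platelet integrin chain, stood at 77.8 ± 12.1 CPM against 10.6 ± 0.673 CPM in the control (SD, n = 2 in each group). The part of the platelet markers in the Vwf result was not tested.

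Genes that process clotting factors or expose the membrane on which they assemble showed smaller shifts. Of 12 listed, 11 were tested: 5 were higher, 3 lower and 3 did not pass (median 0.34). The count of higher genes was 3 without control replicate 1, where Ano6 and Mcfd2 lost their calls, and 4 without control replicate 2, where both lost them and Ggcx passed. Furin, the protease that removes the propeptides of vitamin K-dependent factors, rose 1.98-fold, and Xkr8, a scramblase that exposes phosphatidylserine in dying cells, rose 1.76-fold. Anxa5, which binds and shields phosphatidylserine, rose 2.30-fold, from 437 ± 27.2 to 996 ± 36.1 CPM (SD, n = 2 in each group). Pdia3, a disulfide isomerase, fell to 63.6% of control.

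The protease-activated receptors, which are cleaved by proteases such as thrombin or active factor X, were low and mostly higher in the knockout. All 4 were tested, 3 rose and 1 did not pass. F2rl2 was at 5.33 and 4.27 CPM in the knockout and 0.289 and 0.200 CPM in the control, a rise of 19.9-fold (log2 4.32, SE 0.39, adjusted p = 5.15e-06). F2r, the main thrombin receptor of many cells, rose 5.04-fold, from 0.502 and 0.444 to 3.02 and 1.62 CPM. F2rl3 rose 8.60-fold from a control level of 16 counts in all, with a log2 value of 3.10 that became 4.10 without control replicate 1 and 2.50 without control replicate 2. The receptor that did not pass was F2rl1 (log2 -0.81, SE 0.77, adjusted p = 0.413). Platelets carry some of these receptors, and their marker list was higher in the same libraries, as given above. So were the lists of eosinophil markers (6 of 7 tested, summed 230 to 290.3 CPM against 32.1 to 35.8 CPM) and of mast cell and basophil markers (6 of 6, 76.4 to 84.5 CPM against 5.55 to 6.80 CPM). Fibroblast and stromal markers, of cells that carry Serpine2 and F2r, had 4 higher and 3 not passing of 7 tested. Their sum was 77.1 to 85.8 CPM against 2.81 to 3.76 CPM, mostly from Dcn and Thy1. The collagen gene Col1a1 was at 0.570 and 0.761 CPM in the knockout and 0.623 and 0.0572 CPM in the control, and Lepr had no count. Lum, also on the list and named after its values were seen, had 161 pooled counts in the knockout and none in the control. This was at least 13.6-fold higher against the floor of 12 pooled counts. The part of these cell types in the results was not tested.

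**Figure D3:**
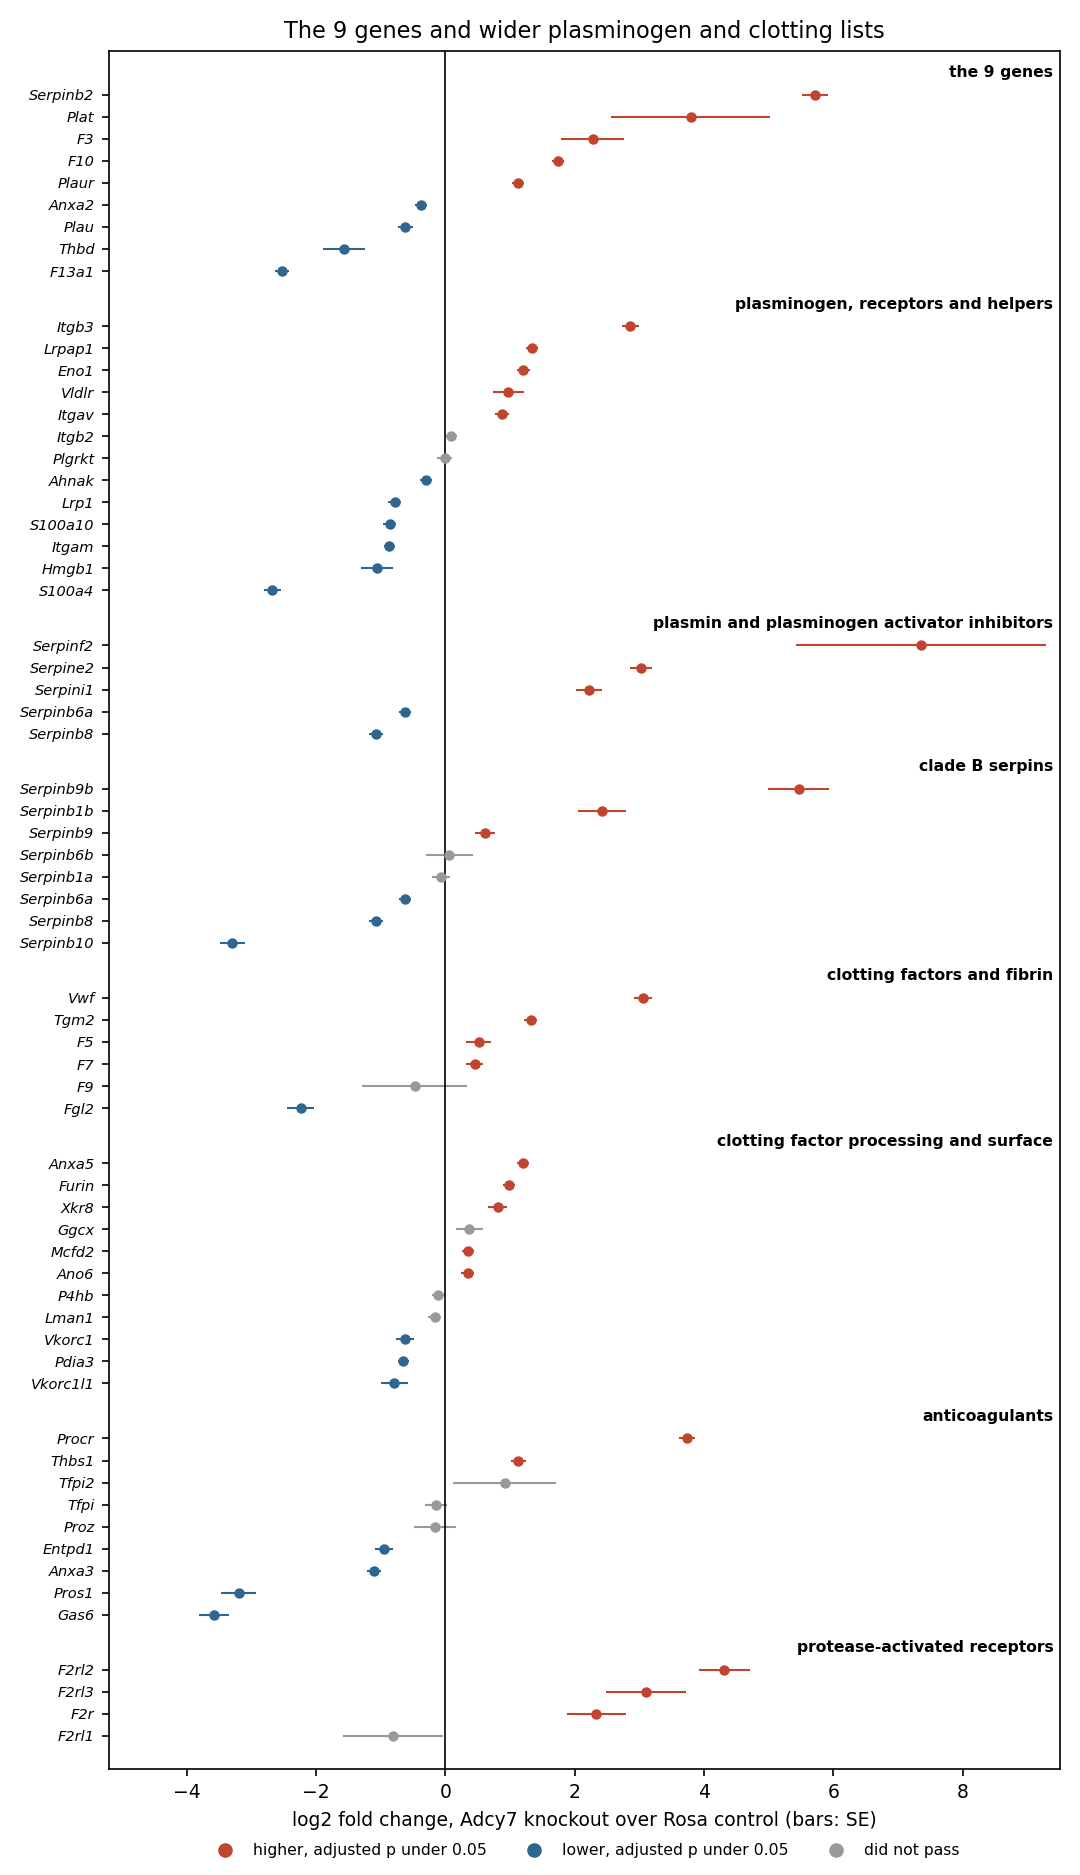
Log2 fold change of Adcy7 knockout over Rosa control with its standard error for the 9 genes and for every tested gene of the 7 wider lists, in red where higher, in blue where lower and in grey where the test was not passed. The list of protease-activated receptors lies mostly to the right, the other lists lie on both sides, and the value of Serpinf2, with no control count, is a fitted one that sets no bound.

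**Figure D4:**
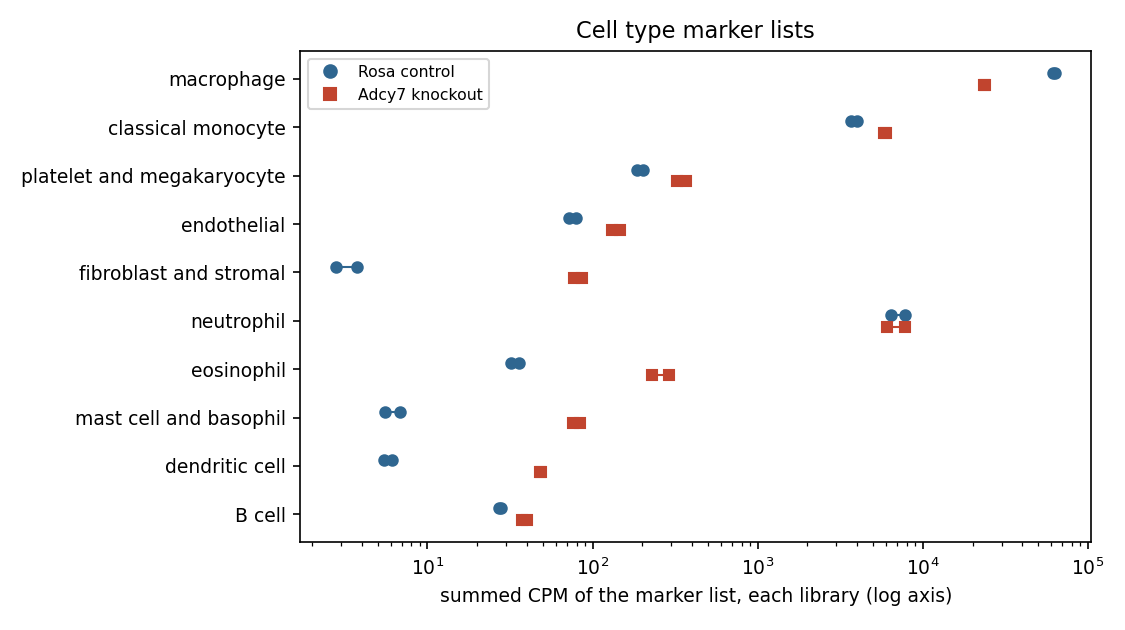
Summed CPM of each cell type marker list in each library, on a log axis, with circles for Rosa control and squares for Adcy7 knockout. The sum of the macrophage list is lower in the knockout, the sums of the neutrophil list overlap, and the sums of the other lists are higher. The endothelial sum is higher mostly through Vwf. The classical monocyte sum is higher mostly through Hp, while 5 of its 8 genes were lower.

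Over all 7 wider lists, 54 of 85 genes were tested, of which 25 rose, 17 fell and 12 did not pass, beside 25.0% and 24.6% of all tested genes. Of the 31 not tested, 21 had no count in any library.

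The order of the 9 mRNAs by level per kilobase differed between the groups. In the control it ran Anxa2 (274 CPM per kilobase), F13a1 (127), F10 (54.0), Plaur (27.9), Plau (17.2), Serpinb2 (4.69), Thbd (1.69), F3 (0.190) and Plat (0.00459), with no overlap between neighbours in this order. In the knockout it ran Serpinb2 (245 CPM per kilobase), Anxa2 (209), F10 (179), Plaur (60.1), F13a1 (21.9), Plau (11.1), F3 (0.941), Thbd (0.549) and Plat (0.0717). There the libraries of Serpinb2 and Anxa2 overlapped, as did those of F3 and Thbd, so these pairs had no firm order. Serpinb2 moved from the sixth place to the top pair with Anxa2, and F13a1 from the second to the fifth.

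For the genes other than Serpinb2, the tested gene with the nearest pattern was found by the Euclidean distance between their 4 log2 CPM values, each centred on its own mean, over genes with a mean of at least 1 CPM. F10 lay nearest to Hspa4l (0.0133), Plaur to Gpr137b (0.0402), Plau to Zfp956 (0.0270), F13a1 to Rad54l (0.0475) and Anxa2 to the pseudogene Rpl10-ps6 (0.00539). F3 and Plat both lay nearest to Gbp4, at larger distances of 0.508 and 0.523, and Thbd to the noncoding gene Gm28875 (0.288). With 4 libraries in 2 groups these patterns reduce to little more than the size of the change and the gap between replicates.

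The promoter windows differ in their letters from gene to gene. AP-1 letters (TGANTCA, the same on both strands) were in 4 of the 6 genes with a window and in 8.97% of 27025 genes with promoters of the same length. The sites were in 3 genes that rose (Plaur, Serpinb2, F3, printed above) and in Anxa2, which fell, and not in F10 or F13a1. Of all tested genes with a window, the letters were in 7.58% of those higher, 7.16% of those lower and 5.58% of those that did not pass. The full cyclic AMP response element (TGACGTCA) was in none of the 6, beside 2.03% of all genes, and its part TGACG, which the full element holds on both strands, was in F13a1 only, beside 23.0% of all genes. NF-kB letters (GGNNTTTCC) were in F3 and F13a1, beside 6.62%, and the EGR letters (GCGNGGGCG) in Plaur, beside 6.27%, where they overlap GC boxes (GGGCGG). The hypoxia core (ACGTG) was in Anxa2 and F10, beside 21.8%, and the antioxidant core (TGACNNNGC) in none, beside 13.99%. TATA letters (TATAAA) were in Serpinb2, Anxa2 and F3, beside 15.7%, and GC boxes in Plaur, Anxa2 and F3, beside 38.2%. Both strands were searched throughout. A match describes letters and shows no binding, and a missing match says only that the letters are not in this window.

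**Figure D5:**
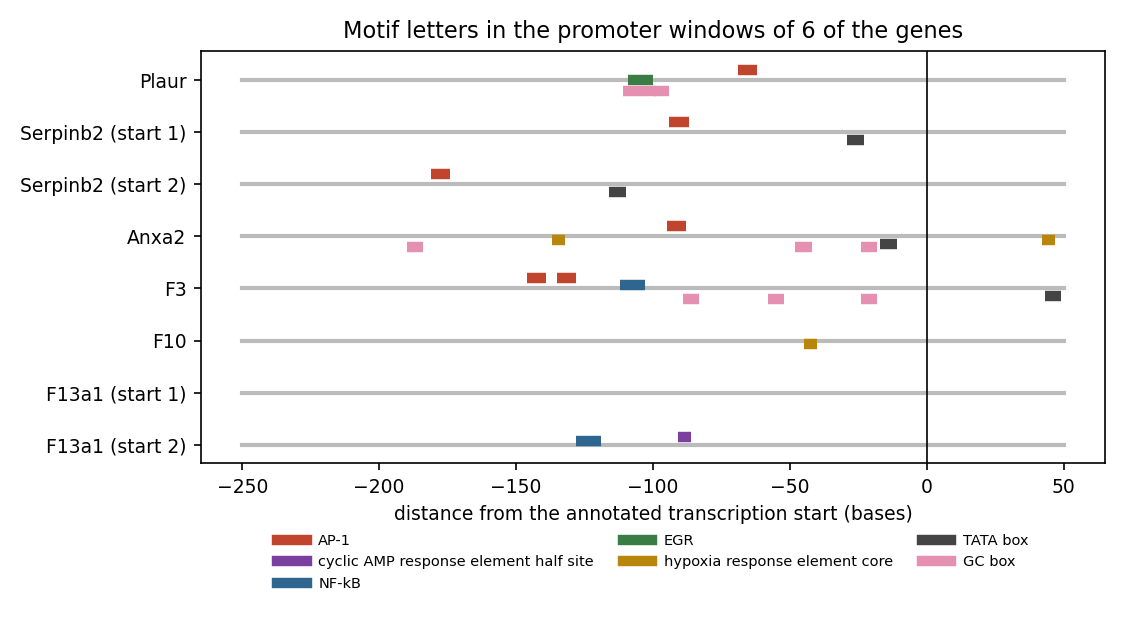
Positions of motif letters in the promoter windows of 6 of the genes, as the distance in bases from the annotated start at 0, with 1 row per start and 1 colour per motif. AP-1 letters lie between 146 and 63 bases before the start in Plaur, F3, Anxa2 and the upstream start of Serpinb2, and F10 and F13a1 have none.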

How the data were processed

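The authors deposited 1 expected count per Ensembl gene ID and library, an estimated count given as a whole number. CPM was computed here from them. The submitters' processing notes name fastp, HISAT2, StringTie and edgeR with GRCm39, and give no versions. The step from StringTie to counts has no description in the labels. Small counts clustered at multiples of 4 (30.5% to 32.2% of genes with 1 to 40 counts, against 25% with no such step), so 4 counts were taken as about 1 fragment for floors and intervals, which is an assumption. A floor is 3 fragments, or 12 counts pooled over a group (0.0898 CPM in the knockout, 0.0885 CPM in the control); floors and intervals cover counting error only.

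Groups came from the sample titles. The columns named KO3 were matched to the Adcy7 knockout titles by KO and the replicate number; what the digit 3 means is not given. Symbols matched 55141 of 55401 IDs; types, chromosomes, overlaps and merged exon lengths came from GENCODE M21 (GRCm38), a build other than that of the files, so no gene coordinates are given. Promoters (RefSeq, GRCm38.p6) matched 6 of the 9 genes. No strand setting is stated, so reads of overlapping genes may not be told apart.

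Counts were filtered with filterByExpr (15832 genes left), scaled by TMM, and then compared by edgeR 4.0.16 in R 4.3.3 (quasi-likelihood test, legacy off, 2 residual degrees of freedom, Benjamini-Hochberg over all tested genes, threshold 0.05). The test was also run on simulated counts with the same dispersion for all genes and 200 genes changed. Such counts cannot check it where, as here, 49.6% of tested genes passed. DESeq2 1.42.0, limma 3.58.1 and other scalings, filters and left-out libraries were alternatives. The 9 genes, the 7 wider lists and the marker lists were chosen with earlier results of these data known. Named genes were the 9, Adcy7, up to 4 per wider list with the smallest adjusted p among genes that passed, had groups that did not overlap and averaged at least 0.5 CPM, the nearest-pattern genes, and marker genes. Of these, 1 inhibitor and the nearest-pattern gene of Serpinb2 are not reported here, and the list counts leave that inhibitor out.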

Additional observations from a re-analysis of the deposited data

How the results depend on the processing

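Plat rests on 57 against 4 counts, so depth limits its value, and the F3 and Thbd values move by over 1.5 times without 1 library. Of 124 values of the 9 genes under other settings, 120 kept their call and direction, 4 lost the call and none reversed. The losses were Plat with no low-count filter, without knockout replicate 2 and without control replicate 1, and Anxa2 without control replicate 2; the cause was not tested. Plat did not pass the filter of at least 1 CPM in 2 libraries or the one after division of counts by 4, so it has no value there. Of 364 values of Adcy7 and the wider-list genes that the naming rule picked, 362 kept their call, and F7 lost it with no filter and without control replicate 2. Among the other genes called on the wider lists, F5 lost its call under 9 settings, Serpinf2 under 3, Ahnak, Ano6, Hmgb1 and Mcfd2 under 2 each, and Serpinb9 and Vkorc1l1 under 1 each. Marker and nearest-pattern genes were not run under other settings. Leaving out 1 library gave 4 to 5 of the 9 genes higher and 3 to 4 lower, 20 to 25 higher and 16 to 17 lower on the wider lists, and 2947 to 3844 higher and 3137 to 3710 lower among all genes. With the replicate block, 5 of the 9 genes were higher and 4 lower, with 3932 higher and 3911 lower among all genes. The labels do not say what same-numbered libraries share. Across tested genes, the deviations of the replicate 1 libraries from their group means had a correlation of 0.015. The deviations of the replicate 2 libraries mirror these, so they add nothing. The legacy dispersion setting of edgeR, chosen after seeing the data, gave 3703 higher and 3697 lower.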

Other observations

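The genes next to the 9 on the chromosome, in the order of the GRCm38 annotation, were also looked up. Of 18 immediate protein-coding neighbours 14 were tested: 5 moved in the direction of their neighbour among the 9, 2 moved the other way and 7 did not pass. Of all tested genes 49.6% passed, 25.0% higher and 24.6% lower, so the neighbours passed about as often as tested genes at large. The largest shared falls, picked after the values were seen, were Ly86 beside F13a1 and Cd93 beside Thbd. Ly86, the partner of the Toll-like receptor homologue Cd180, averaged 2.61 CPM in knockout libraries against 89.5 CPM in controls (log2 -5.07, SE 0.14). Cd93, a membrane glycoprotein of myeloid and endothelial cells with a thrombomodulin-like domain layout, was at 57.6 CPM against 348 CPM (log2 -2.58, SE 0.10). F10 lies between F7, which rose, and Proz, which did not pass (log2 -0.16, SE 0.33, adjusted p = 0.715). Antisense genes that overlap Anxa2 and F13a1 had at most 17 counts in a library.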
